A study of Mus musculus with 11 samples.

Results

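Low-coverage whole-genome sequencing of mouse embryonic stem cells (mESC) was used here to compare DNA read depth before and shortly after tamoxifen, in Ctrl and in Tet iTKO cells. The comparison holds 4 of the 11 libraries of the series, 1 for each genotype and stage, taken by their labels. Ctrl cells carry the tamoxifen-activated recombinase Cre/ERT2 and the reporter Rosa26-LSL-H2b-Egfp. Tet iTKO cells carry both of these and floxed alleles of Tet1, Tet2 and Tet3 (Tet1,2,3 fl/fl), so that tamoxifen removes exons of all these genes. Pre-treatment libraries came from cells without activation. Acute libraries came from cells kept in 1 µM tamoxifen for 2.5 days and then cultured for 4 days. Both genotypes therefore received tamoxifen, and it was absent during the last 4 days.

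The reporter is a heterozygous knock-in, and the lines were derived from blastocysts and grown in 2i medium on feeder cells. Cells were sorted as live, CD326+, GFP+ and Thy1.2-. One gate is described for all of these cells, and how cells without activation met its GFP condition is not given in the sources used here. DNA depth carries no expression, so the cell type could not be checked against marker genes. With 1 library per genotype and stage, the day of culture or of library preparation and the stage cannot be told apart.

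TET enzymes oxidise 5-methylcytosine, which is a step in removing DNA methylation. Reads per stretch of genome follow the number of copies of that stretch, averaged over all cells of a sample. In dividing cells, DNA that is copied early in S phase is present on average in more copies than DNA copied late, which gives broad waves of depth along chromosomes, and base composition acts on sequencing depth at a similar scale. In bulk DNA, a small change in all cells and a large change in few cells cannot be told apart.

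The libraries held 754 megabases of mapped sequence in Ctrl pre-treatment, 646 in Ctrl acute, 597 in Tet iTKO pre-treatment and 584 in Tet iTKO acute. The deposited files give the mean read depth of bins of about 50 kb, of which 47924 were autosomal. At 50 bases per read, a length taken from the files that is shorter than the minimum length given in the study's methods, the median bin held 298, 254, 235 and 230 reads in the same order of libraries, and the median 500 kb window held 2989, 2548, 2359 and 2299. Relative depth is the depth divided by the library's median autosomal bin depth, and a log2 difference is acute minus pre-treatment relative depth on the log2 scale after correction for GC content. Pairs of long-term libraries of one group, 3 pairs of Ctrl and 3 of Tet iTKO, were compared in the same way to measure the error between libraries. By their labels, the long-term cells of both genotypes had 1 µM tamoxifen for 2.5 days and 30 days of long-term culture. The study describes long-term cells of both genotypes as clonal, so these pair differences can also hold copy differences between clones. Chromosome Y stood at a relative depth of 0.0269 to 0.0381 in the 4 early libraries and of 0.463 to 0.558 in the 6 long-term libraries, so the long-term libraries that supply this error differ from the early ones. Chromosome X stood at 0.56 to 0.572 in both sets. Covered bins with under 400 bases of sequence numbered 798 to 920 in the early libraries and 1 in each long-term library. The cause of these differences was not tested.

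The targeted genes were examined first. Relative depth over Tet1 was 1.11 and 1.17 in Ctrl before and after tamoxifen, and 1.08 and 1.07 in Tet iTKO. Over Tet2 it was 1.10 and 1.23 in Ctrl, and 1.09 and 1.12 in Tet iTKO. Over Tet3 it was 1.05 and 1.05 in Ctrl, and 1.06 and 1.00 in Tet iTKO. Over whole genes, 2 of these 6 log2 differences lay outside the signed range of the long-term pairs defined above. They were Tet1 in Ctrl, at 0.083 with a pair range of -0.086 to 0.071, and Tet3 in Tet iTKO, at -0.063 with a pair range of -0.023 to 0.069. The sign of a pair difference depends on the order of its replicates. In size, neither value exceeded the largest pair difference of its gene, so both lay within the error between libraries.

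The floxed parts are much shorter than a bin, so the bins that hold them were set against the size of change a complete loss would give. Exons are numbered here on 1 annotated transcript per gene, with 13 exons for Tet1, 11 for Tet2 and 12 for Tet3, and the positions of the loxP sites are not given in the sources used here. Exons 8 to 10 of Tet1 span 3.24 kb (chromosome 10, 62816384 to 62819623, minus strand), which is 6.48% of their bin, and loss of that span alone would give -0.097. The measured log2 difference of the bin was 0.014 in Ctrl and -0.091 in Tet iTKO. Exons 8 to 10 of Tet2 span 4.41 kb (chromosome 3, 133469276 to 133473685, minus strand), or 8.83% of their bin, for which loss would give -0.133. The measured values were 0.179 in Ctrl and -0.151 in Tet iTKO. Exon 2 of Tet3 (chromosome 6, 83454750 to 83455480, minus strand) is 1.46% of its bin, for which loss would give -0.021, and the values were 0.070 and 0.024.

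The Tet1 and Tet2 bins thus had lower depth after tamoxifen in Tet iTKO and not in Ctrl, but counting error alone is 0.127 and 0.129 (SD) for these differences. The difference between genotypes was -0.105 ± 0.188 (SE) for the Tet1 bin and -0.329 ± 0.181 for the Tet2 bin (limma across all bins, adjusted p = 0.998 for both). Excision of the floxed exons was therefore not detectable at this depth. The reporter locus Gt(ROSA)26Sor differed by 0.003 in Ctrl and 0.014 in Tet iTKO.

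The window with the largest difference in either genotype was in Ctrl, on chromosome 12. A run is a stretch of at least 4 consecutive bins whose log2 differences all lie at 0.2 or beyond in one direction. Ctrl had 1 run, of 9 bins (chromosome 12, 98513637 to 98963958, mm10), and its relative depth rose from 1.09 to 1.44. Tet iTKO stood at 1.09 and 1.11 over the same bins, and the 6 long-term libraries at 1.07 to 1.16. Only the Ctrl acute library stood apart among these 10. The 9 bins differed by 0.272 to 0.736 in Ctrl, with a mean of 0.398, and by 0.029 on average in Tet iTKO. The run held 2922 reads before and 3290 after tamoxifen, which after scaling to library depth is a ratio of 1.32, with a 95% interval of 1.25 to 1.39 (exact binomial, counting error only). Because the run was picked by these same differences, the ratio is likely too large and the interval is no test of a change. The nearest 2 bins on each side differed by 0.111 to 0.275.

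**Figure D1:**
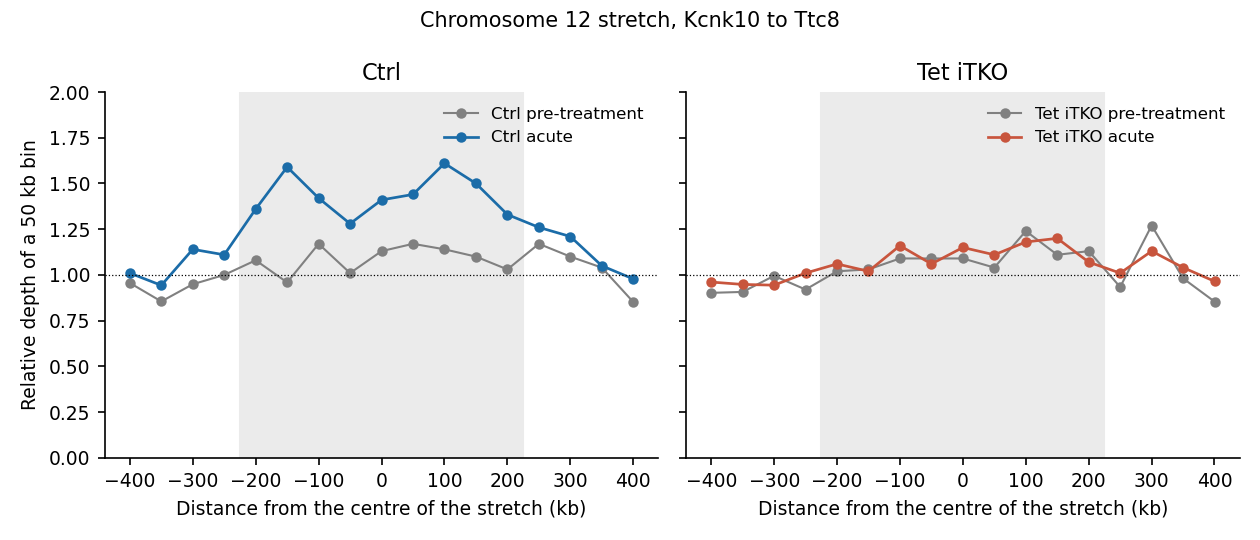
Relative depth of 50 kb bins (vertical axis) against distance from the centre of the chromosome 12 stretch in kb, for Ctrl (left) and Tet iTKO (right), before (grey) and after tamoxifen (colour), 1 library each; the shaded area is the run. In Ctrl the acute points of the run stand between 1.28 and 1.61 and the pre-treatment points between 0.959 and 1.17, whereas the points of the Tet iTKO libraries overlap.

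The run holds all of Spata7, a ciliary protein of photoreceptors, of Ptpn21, a tyrosine phosphatase, of Zc3h14, a poly(A)-binding protein, and of Eml5, a microtubule-associated protein. It also holds 69.2% of Ttc8, a subunit of the BBSome that carries cargo in cilia, and 43.4% of the potassium channel gene Kcnk10. The 500 kb window over it (98513637 to 99013993) had relative depths of 1.10 and 1.42 in Ctrl and of 1.08 and 1.10 in Tet iTKO. Its log2 difference was 0.377 ± 0.044 (SE) in Ctrl, which passed the test (limma over 10 libraries, adjusted p = 0.000154), and 0.045 ± 0.044 in Tet iTKO (adjusted p = 0.799). It was the only 1 of 4781 windows called in Ctrl (0.0209%), where 231 had an unadjusted p under 0.05 (4.83%). The spread in this test comes from the long-term libraries and is assumed for the early ones. One of its bins (98563672 to 98613707, over the 5′ end of Kcnk10, which lies on the minus strand) was the only 1 of 47708 bins called in Ctrl (0.0021%, with 3.84% at an unadjusted p under 0.05), at 0.736 ± 0.131 (adjusted p = 0.0466), and that call was lost without long-term Ctrl replicate 1 (adjusted p = 0.101), long-term Ctrl replicate 3 (adjusted p = 0.0645) or long-term Tet iTKO replicate 1 (adjusted p = 0.0714).

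In Tet iTKO, 1 of 4781 windows was called (0.0209%, with 394 or 8.24% at an unadjusted p under 0.05), and it lay on chromosome 15 (57027435 to 57527296). Its relative depth was 0.935 before and 1.11 after tamoxifen in Tet iTKO, and 1.02 and 1.00 in Ctrl. The 6 long-term libraries stood between 0.979 and 1.09, so the pre-treatment library was the lowest of the 10 and the acute library the highest. The log2 difference was 0.244 ± 0.039 (SE, adjusted p = 0.019) in Tet iTKO and -0.054 ± 0.039 (adjusted p = 0.988) in Ctrl. All of its 10 bins were higher after tamoxifen in Tet iTKO, by 0.069 to 0.415, and 2 of 10 were higher in Ctrl. Because the window was picked by these same differences, its bins and the order of its libraries are no further test of a change. The window holds 1 protein-coding gene, Slc22a22, an organic anion transporter (57243767 to 57477625, minus strand). The call was lost without long-term Ctrl replicate 1 (adjusted p = 0.070), and no window of 250 kb or of 1 Mb was called in Tet iTKO. No single bin was called in Tet iTKO (0.0% of 47708), where 2750 had an unadjusted p under 0.05 (5.76%).

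Whether the genotypes responded differently was tested window by window, and none of 4781 windows passed (0.0%), with 252 at an unadjusted p under 0.05 (5.27%; limma over 10 libraries). No single bin passed that test either (0.0% of 47708), with 2179 at an unadjusted p under 0.05 (4.57%). The 5 windows with the smallest p were led by the 2 just described. The Slc22a22 window differed between genotypes by 0.298 ± 0.055 and the Kcnk10 to Ttc8 window by -0.332 ± 0.062 (Tet iTKO minus Ctrl, SE, adjusted p = 0.0686 for both). Both were called without long-term Tet iTKO replicate 2 (adjusted p = 0.0109 and adjusted p = 0.00659), a library with large copy changes of its own.

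The other 3 windows of that list went down in Tet iTKO and up in Ctrl, and none passed (adjusted p = 0.884). Over Cxadr and Btg3 (chromosome 16, 78049712 to 78549912), relative depth went from 1.07 to 0.943 in Tet iTKO and from 1.03 to 1.05 in Ctrl. Over the Hoxd cluster with Lnpk and Evx2 (chromosome 2, 74517818 to 75017726), whose Hoxd genes pattern limbs and trunk, it went from 1.06 to 0.964 in Tet iTKO and from 0.996 to 1.07 in Ctrl. Over Rsu1, Cubn and Trdmt1 (chromosome 2, 13037430 to 13536801) it went from 1.03 to 0.928 and from 0.989 to 1.03. Trdmt1 is a methyltransferase of transfer RNA.

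**Figure D2:**
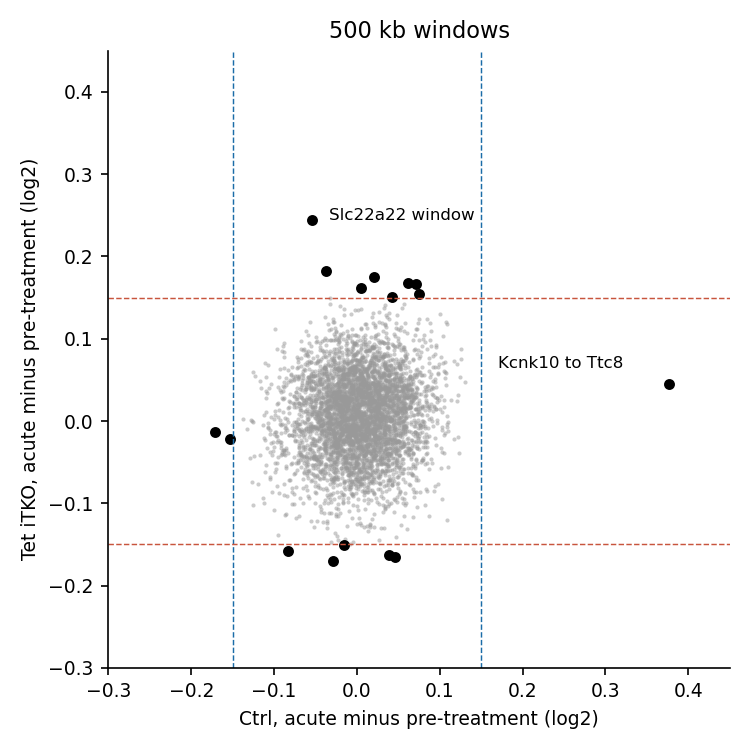
Log2 difference of each of 4781 windows of 500 kb, acute minus pre-treatment, in Ctrl (horizontal axis) and in Tet iTKO (vertical axis); dashed lines mark 0.15 in either direction and black points are windows at or beyond it in either genotype. There are 3 such windows in Ctrl and 13 in Tet iTKO, and no black point lies beyond both pairs of lines.

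Over both genotypes together, no 500 kb window was called as changed by acute tamoxifen (0.0% of 4781, smallest adjusted p = 0.651; limma with genotype as a block, 1 residual degree of freedom). At an unadjusted p under 0.05 there were 299 windows (6.25%). A permutation of 2 libraries against 2 cannot give a p below 0.33. At 0.15 or beyond, 1 window was higher (0.0209%) and 2 were lower (0.0418%) in Ctrl, and 8 were higher (0.167%) and 5 lower (0.105%) in Tet iTKO. None was common to both genotypes, in the same or in opposite directions. The long-term pairs had between 0 and 29 such windows, and between 0 and 6 without long-term Tet iTKO replicate 2. The differences of both genotypes had a Pearson r of 0.083 across windows, which are neighbours and not independent.

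Of the 13 windows in Tet iTKO, the neighbouring pair on chromosome 7 that begins with Zscan4d, Zscan4e and Zscan4f, multicopy genes of the early embryo, was singled out after its values were seen. Relative depth there went from 0.960 to 1.08 (11034623 to 11533932) and from 0.974 to 1.10 (11533933 to 12033243) in Tet iTKO, and from 0.948 to 0.92 and from 1.02 to 1.04 in Ctrl. Reads of such near-identical copies cannot be placed with certainty.

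Since none was called, the 5 windows with the largest mean difference of one sign are given as a description. After the Kcnk10 to Ttc8 window came the one over Ano5, Slc17a6, Fancf, Gas2 and Svip (chromosome 7, 51504694 to 52004851), in which relative depth went from 0.991 to 0.938 in Ctrl and from 1.03 to 0.921 in Tet iTKO. Fancf is a member of the Fanconi anaemia DNA repair complex. The window over Pde4b, Sgip1, Tctex1d1 and Insl5 (chromosome 4, 102526224 to 103026222) went from 0.931 to 0.974 and from 0.925 to 1.03. That over Cdh4, a cadherin (chromosome 2, 179013827 to 179513725), went from 0.943 to 0.873 and from 0.967 to 0.870, and the last window of chromosome 13 (120031186 to 120321639, with 8 protein-coding genes, among them Gm21188, Gm20767 and Gm21818) from 1.19 to 1.27 and from 1.22 to 1.32. Their mean log2 differences were -0.120, 0.119, -0.117 and 0.115, each with an SE of 0.029 to 0.031.

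A single bin was called over both genotypes (0.0021% of 47708), and it was lower after tamoxifen. It lies within Hspa12a, a gene of a heat shock protein family, and takes in 2 of its annotated exons (chromosome 19, 58880760 to 58930775). It held 312 reads before and 177 after tamoxifen in Ctrl, and 230 and 177 in Tet iTKO. Relative depth was 1.05 and 0.694 in Ctrl and 0.979 and 0.770 in Tet iTKO, so that both acute values lay below both pre-treatment values. The 6 long-term libraries stood at 0.777 to 0.929, between the acute and the pre-treatment values. The mean log2 difference was -0.451 ± 0.092 (SE, adjusted p = 0.0468), and the call was lost with a variance trend and robust estimation together (adjusted p = 0.136), without the genotype block (adjusted p = 0.341) and in the pooled fit (adjusted p = 0.605). In the fit with the genotype block, all bins share a common variance, so the SE of 0.092 does not measure the spread of this bin. Tet iTKO minus Ctrl was 0.234 there. The same holds for the SE of 0.092 of the gene bins given below. The neighbours of the Hspa12a bin, 2 bins on each side, lay between -0.259 and 0.095.

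Single bins carry little else. The SD of the log2 difference over bins was 0.126 in Ctrl and 0.137 in Tet iTKO, where counting error alone gives 0.123 and 0.134. At 0.2 or beyond, 5.35% of bins were higher and 5.64% lower in Ctrl, and 7.23% were higher and 7.20% lower in Tet iTKO. Bins past 0.2 in both genotypes were higher in both 185 times, lower in both 181 times, and opposite 167 times in each way.

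Tet iTKO had 6 runs, all of 4 or 5 bins. Magi2, which encodes a scaffold protein of cell junctions and spans over a megabase, held the run with the largest mean, 0.343 over 200 kb (chromosome 5, 19502759 to 19702515), with 1 annotated exon inside. Relative depth went there from 0.839 to 1.08 in Tet iTKO and from 0.912 to 0.994 in Ctrl, and the long-term libraries stood at 0.955 to 1.02. Both pre-treatment libraries thus lay below the long-term range and the Tet iTKO acute library above it. A second gain covered Susd5 and 36.7% of Fbxl2, which encodes an F-box protein of ubiquitin ligases (chromosome 9, 114015885 to 114216030), where Tet iTKO went from 0.978 to 1.15 and Ctrl from 1.09 to 1.14. The loss with 5 bins (chromosome 17, 67793055 to 68043001) covered Arhgap28, a GTPase-activating protein, and 23.6% of the laminin gene Lama1, and went from 1.04 to 0.859 in Tet iTKO and from 0.980 to 0.958 in Ctrl.

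The other 3 runs were losses without a protein-coding gene. One (chromosome 1, 100697858 to 100897867) lies 212 kb beyond Cntnap5b and went from 1.02 to 0.872. Another (chromosome 3, 149248613 to 149448445) lies 258 kb beyond Adgrl2 and went from 0.971 to 0.802. The third (chromosome 16, 82601540 to 82801620), 26.8 kb before Gm21833, went from 1.08 to 0.904 in Tet iTKO and from 1.09 to 1.01 in Ctrl. Long-term pairs had 0 to 5 runs, with or without long-term Tet iTKO replicate 2, so the count in Ctrl lay within and that in Tet iTKO 1 above that range. With at least 6 bins, the run on chromosome 12 was left in Ctrl and none in Tet iTKO.

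The broad wave is the running mean of the log2 difference over 11 windows, or 5.5 Mb, with at least 6 windows present. Its SD was 0.0146 in Ctrl and 0.0181 in Tet iTKO, against 0.0126 to 0.0151 in the long-term pairs without Tet iTKO replicate 2 and 0.0475 to 0.0483 in the pairs with it. Counting error alone gives 0.0119 and 0.0129, so the wave was 1.23 and 1.40 times counting error in Ctrl and Tet iTKO and 1.05 to 1.2 times in those 4 pairs. By SD, the wave in Ctrl lay within the range of those 4 pairs and that in Tet iTKO above it. Relative to counting error, both lay above the pairs, Ctrl by a small margin. The SD was larger in Tet iTKO than in Ctrl on 16 of 19 autosomes. Its extremes were -0.051 and 0.061 in Ctrl and -0.052 and 0.070 in Tet iTKO.

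**Figure D3:**
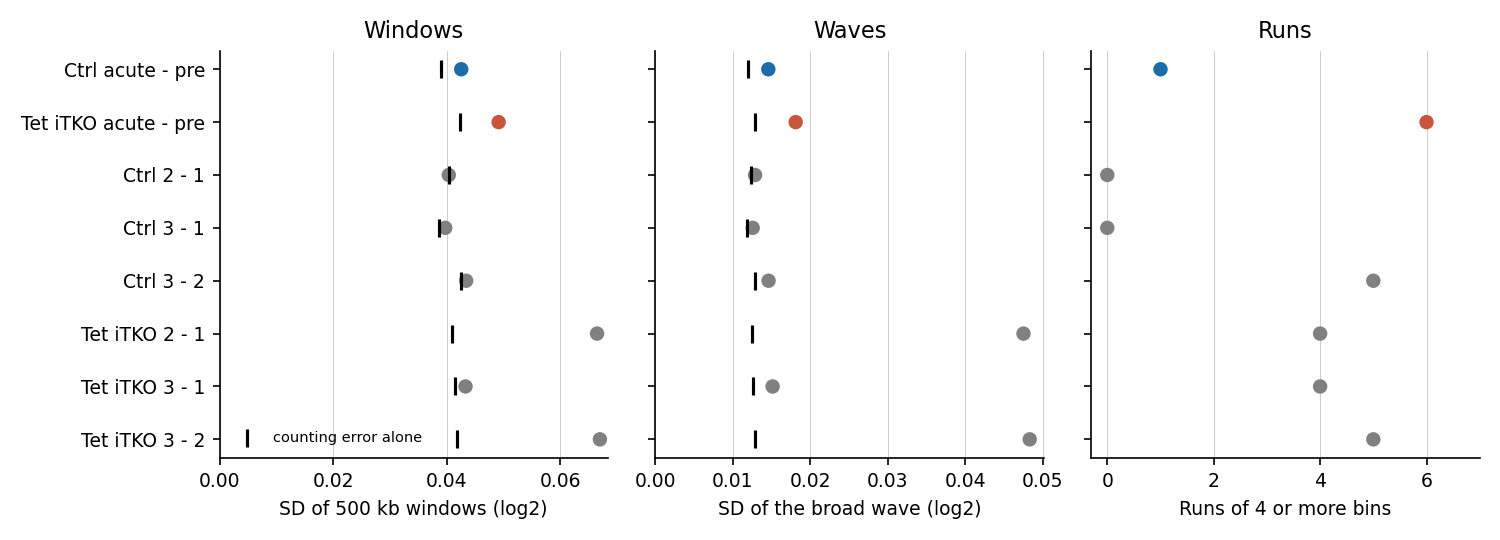
SD of the log2 difference over 500 kb windows (left), SD of the broad wave (middle) and number of runs of 4 or more bins (right) for Ctrl and Tet iTKO acute minus pre-treatment with the 6 same-group pairs of the long-term stage in grey (named by replicate); black ticks mark the SD that counting error alone gives. The Tet iTKO comparison lies to the right of the Ctrl comparison in each panel, and the pairs with long-term Tet iTKO replicate 2 have the largest SDs.

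Without GC correction, the SD of the wave was 0.0195 in Ctrl and 0.0194 in Tet iTKO, both above the 0.0129 to 0.0155 of the same 4 pairs, and acute depth was relatively higher in AT-rich windows in both genotypes. In the tenth of windows with the lowest GC content (35.1% to 37.3%), the uncorrected difference averaged 0.0366 in Ctrl and 0.0261 in Tet iTKO. In the tenth with the highest (47.1% to 54.2%), it averaged -0.0185 and -0.0046. The uncorrected wave had a Pearson r with GC content of -0.652 in Ctrl and -0.320 in Tet iTKO, which the correction brought to 0.014 and 0.046. In the long-term pairs the uncorrected r ranged from -0.54 to 0.335, with a sign that depends on the order of the replicates. The Tet iTKO value lay within that range and the Ctrl value beyond it. Windows without a protein-coding gene, of which there were 803, moved likewise, by 0.0285 and 0.0160 before and by 0.0053 and 0.0043 after the correction. In the long-term pairs, the uncorrected mean of these gene-free windows lay between -0.0112 and 0.0110. How much of the GC-dependent shift comes from library preparation was not tested.

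The waves of both genotypes, which share no library, had a Pearson r of 0.137 over 4802 window positions after GC correction and of 0.323 before it. By autosome, r was above 0 on 16 of 19 and ranged from -0.191 to 0.497. The waves of the same sign made up 56.2% of positions.

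The 3 highest crests of the wave averaged over both genotypes were small. The highest lay at the distal end of chromosome 13 (117047692 to 120321639, from Emb to the last window named above), where the wave reached 0.043 in Ctrl and 0.056 in Tet iTKO. At this chromosome end the mean was over 6 windows rather than 11, among them the end window of 290 kb, so counting error is larger there. The second lay on chromosome 10 (62505220 to 68004393, beginning with Srgn, Kif1bp, Ddx21 and Ddx50, and taking in Tet1), at 0.038 and 0.055. Relative depth went there from 0.992 to 1.021 in Ctrl and from 0.985 to 1.021 in Tet iTKO, and 9 and 10 of 11 windows were higher. The third lay on chromosome 9 (27016668 to 32517623, with Ncapd3, a condensin subunit, and Jam3), at 0.036 and 0.049.

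The 3 deepest troughs were on chromosome 15 (35036796 to 40531994, with Stk3, Osr2 and Vps13b), at -0.023 and -0.039, on chromosome 19 (55029491 to 60531302, with Gpam and Acsl5 and the Hspa12a bin), at -0.032 and -0.030, and on chromosome 1 (89547306 to 95047577, with Agap1, Gbx2 and Ackr3), at -0.043 and -0.014. At these 6 places the wave of either genotype stayed between -0.043 and 0.056. Over all positions, it reached -0.051 and 0.061 in Ctrl and -0.052 and 0.070 in Tet iTKO. The waves of the 3 long-term Ctrl pairs reached -0.053 and 0.055 over all positions. That of long-term Tet iTKO replicates 3 and 1 reached -0.112 and 0.046.

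**Figure D4:**
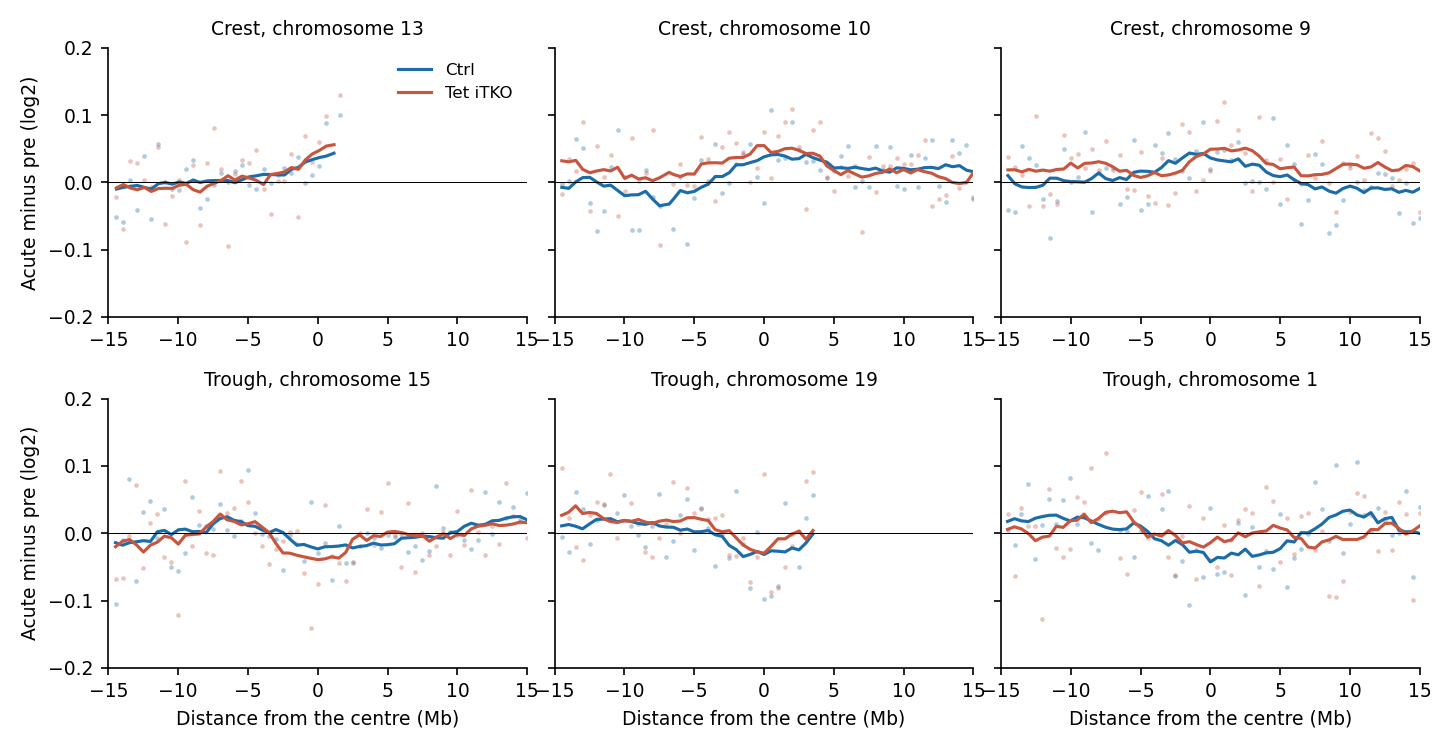
Log2 difference, acute minus pre-treatment, of 500 kb windows (points) and its running mean over 11 windows (lines) in Ctrl (blue) and Tet iTKO (red), against distance from the centre in Mb, for the 3 highest crests (top) and 3 deepest troughs (bottom) of the mean wave. The lines lie between -0.043 and 0.056 at the crests and troughs, and single windows scatter by more than the lines move. The chromosome 13 crest, at the chromosome end, is a mean over 6 windows.

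Every library shares a standing profile of broad waves, which was taken as the median of the 6 long-term libraries. The slope of a library's own profile on it says how tall its waves are, with 1 for the same height. The slope was 0.980 before and 0.969 after tamoxifen in Ctrl. In Tet iTKO it was 1.02 before and 1.10 after. The acute slope was steeper than the pre-treatment slope on 18 of 19 autosomes in Tet iTKO, all but chromosome 15, with a mean rise of 0.095 ± 0.066 (SD over autosomes), and on 10 of 19 in Ctrl, with a mean of -0.011 ± 0.071. Autosomes of 1 library are not replicates, and the change has no test.

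Pairs of long-term libraries of one group differed in slope by -0.034 to 0.057, so the change of 0.082 in Tet iTKO lay outside and that of -0.010 in Ctrl within that range. Without GC correction the change was 0.060 in Tet iTKO and -0.041 in Ctrl. The slope was then steeper after tamoxifen on 16 autosomes in Tet iTKO and on 7 in Ctrl. The value of 0.060 is close to the largest pair difference, but the pair differences are GC-corrected and were not computed without the correction. The slopes of the long-term libraries, each set against the other 5, were 0.902 to 0.926 in Ctrl and 1.03 to 1.09 in Tet iTKO. Split by standing depth into 5 classes of 956 windows, the mean log2 difference in Tet iTKO was 0.0132 in the highest class and 0.0011 in the lowest. The long-term pairs ranged from -0.0029 to 0.0050 in the highest class. In Ctrl the values were 0.0017 and 0.0024. The highest class held 6.30 protein-coding genes per window and the lowest 3.42.

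**Figure D5:**
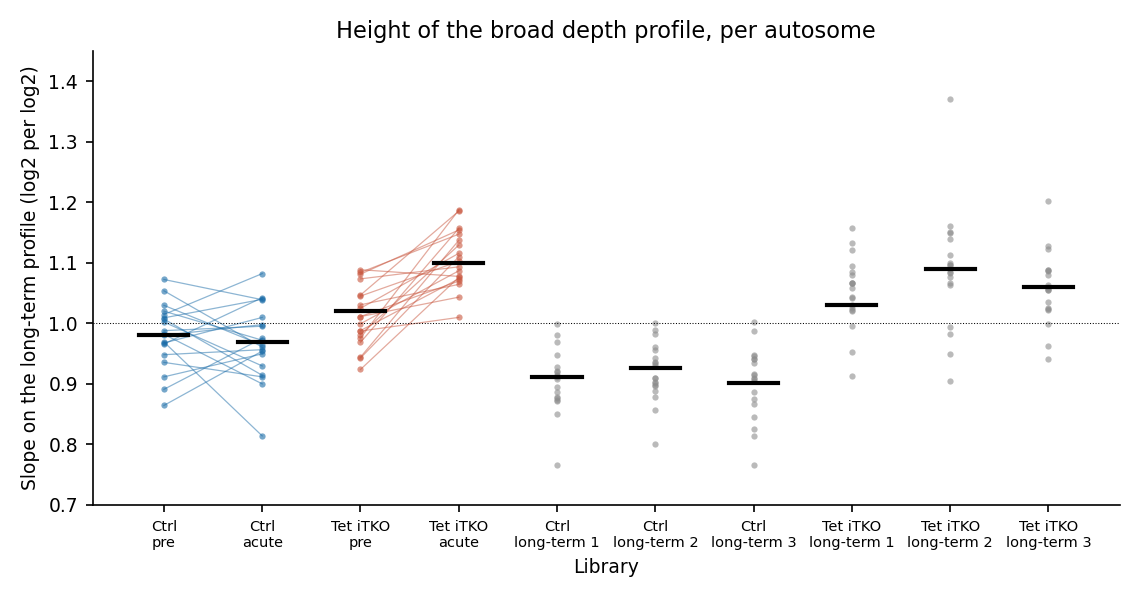
Slope of each library's broad depth profile on the profile of the long-term libraries (vertical axis, log2 per log2), by autosome (points) and over all autosomes (black bars), for the 4 early libraries, with lines joining the same autosome before and after tamoxifen, and for the 6 long-term libraries, each against the other 5. In Tet iTKO the bar goes from 1.02 to 1.10 and all 19 autosomes of the acute library lie above 1, whereas the Ctrl bars are at 0.980 and 0.969.

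Genes with roles in this system were read from lists. None of 90 listed genes had its bin called, beside 1 of 47708 bins in all (0.0021%; limma paired fit, smallest adjusted p = 0.902). At an unadjusted p under 0.05 there were 6 of 90 (6.67%), beside 5.40% of all bins. Of the 90 genes, the 2 genotypes had the same sign in 44, and the last listed gene, Tcstv3, had no bin in the fit.

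Of the subcortical maternal complex, which supports spindle function in early embryos, Khdc3 differed by 0.007 in Ctrl and 0.123 in Tet iTKO and Ooep by -0.014 and 0.003. Tle6 was the lowest of its 7 members, at -0.219 and -0.093. The list median was -0.008 in Ctrl and -0.017 in Tet iTKO. Of the 5 DNA methylation genes, Dnmt3a, a de novo methyltransferase, was lowest (-0.088 and -0.050) and Uhrf1, which guides maintenance methylation, highest (0.007 and 0.267).

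Among 22 genes of chromosome segregation, the mitotic kinase gene Aurka was lowest. Its relative depth went from 1.16 to 0.932 in Ctrl and from 1.10 to 0.988 in Tet iTKO, and both acute values lay below both pre-treatment values (mean of the bin -0.214 ± 0.092, SE, adjusted p = 0.902). Plk1, another mitotic kinase gene, was highest, at 0.181 and 0.005. The list median was -0.041 in Ctrl and 0.014 in Tet iTKO.

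Of 12 pluripotency genes, the marker gene Zfp42 was highest, going from 1.06 to 1.13 in Ctrl and from 0.904 to 1.09 in Tet iTKO (mean of the bin 0.183 ± 0.092, SE, adjusted p = 0.924), and Lin28a, an RNA-binding regulator, was lowest, at -0.022 and -0.172. Of 8 genes of growth and the p53 pathway, the cell cycle inhibitor gene Cdkn1a was highest, at 0.042 and 0.270, and Bcl2l1, an inhibitor of apoptosis, lowest, at -0.150 and -0.014. Of 12 multicopy genes of the early embryo, 11 of which were in the fit, Zscan4e was highest, at -0.009 and 0.357, and Zscan4b lowest, at -0.124 and -0.186.

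The 21 long genes, a class that includes common fragile sites, are measured over many bins each. Their medians were 0.001 in Ctrl and 0.002 in Tet iTKO, beside 0.000 and 0.002 over all bins. Nrxn3, a synaptic adhesion gene with 33 bins, was highest, at 0.043 and 0.027. Naaladl2, with 28 bins, was lowest, at -0.037 and -0.046. Over its 31 bins, Magi2 differed by 0.002 and -0.002, so that the run within it did not extend to the gene as a whole.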

How the data were processed

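DNA of 11 mESC libraries had been sequenced at low coverage. Per the study's methods, single-end reads were trimmed, aligned to mm10 with BWA-mem and cleared of duplicates with Picard. The authors deposited, per bin, the mean read depth (a coverage signal, neither scaled nor GC-corrected) and a log2 column that equals the log2 of that depth and was used only for this check. Base sums of bins under 400 bases were multiples of 50 in 94.1% to 96.0% of cases in the early libraries, so reads were taken as base sum over 50. The methods keep only longer reads, and this conflict was not settled. With longer reads, all read counts given here would be lower, and counting errors and intervals wider. Intervals cover counting error only.

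Autosomal bins were divided by the library's median, and bins with a mean relative depth outside 0.5 to 1.5 were left out (47708 of 47924 kept). Windows of 500 kb summed such depth (4781 of 4808 kept). The log2 values were GC-corrected by lowess (span 0.3, 3 iterations) and centred per library. Acute was tested against pre-treatment with limma 3.58.1 in R 4.3.3, over 4 libraries with genotype as a block, and in each genotype and between genotypes over 10 libraries in 6 groups, with Benjamini-Hochberg adjustment at 0.05. The residual spread of the second fit comes from long-term libraries alone. The remaining library of the series, from Dnmt TKO cells, was left out of it. The study describes its replicates as cell populations from different embryos and long-term Ctrl and Tet iTKO cells as clonal. Its labels do not say which embryo or clone each library came from. Named regions were all called ones or, where none was called, the 5 with the largest mean difference of one sign or the smallest p, with 3 crests and 3 troughs. The comparison, though defined by sample labels, and the gene lists were chosen with earlier results of these data known. The lowess came from statsmodels 0.14.6, exact intervals from scipy 1.17.1 and plots from matplotlib 3.10.9, under Python 3.11.15 with pandas 2.3.3 and numpy 2.4.6. Genes were placed by the GENCODE annotation of mm10. The tests were tested on simulated data.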

Additional observations from a re-analysis of the deposited data

How the results depend on the processing

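No paired analysis was possible because of a single replicate number in the early groups, as far as pairing by replicate number goes. The pairing within genotype is part of the main test. Over both genotypes, 2 windows were called without GC correction, 2 at 250 kb, 2 without the depth filter and 1 in the pooled fit, against 0. Both at 250 kb, the 1 in the pooled fit and 1 of those without GC correction were the chromosome 12 stretch from Kcnk10 to Ttc8. The 500 kb window there differed by 0.377 in Ctrl and by 0.045 in Tet iTKO, so these calls rest on Ctrl. The single bin called over both genotypes, which lies within Hspa12a and not in that stretch, was lost (0) with trend and robust estimation, without the genotype block and in the pooled fit. In Tet iTKO the single window was lost (0) without long-term Ctrl replicate 1, and leaving out each long-term library gave 0 to 1. With window sizes added after seeing the data, 0 were called in Tet iTKO at 250 kb and 0 at 1 Mb, and 2 in Ctrl at 250 kb. Between genotypes, 2 windows were called with trend and robust estimation, 2 with the spread of long-term Ctrl and early libraries, and 0 to 2 on leaving out each long-term library, where the 2 came without Tet iTKO replicate 2. In these pooled fits each lone early library is assumed to vary like the long-term groups. Runs in Ctrl numbered 3 without GC correction, 3 without the depth filter, 2 with a filter of 0.8 to 1.2, 16 with at least 3 bins, 18 at 0.15 and 0 at 0.3. Runs in Tet iTKO numbered 36 with at least 3 bins, 0 with at least 6, 50 at 0.15 and 0 at 0.3. The SD of the wave in Ctrl and Tet iTKO was 0.0195 and 0.0194 without GC correction, 0.0194 and 0.0243 at 250 kb, 0.0109 and 0.0136 at 1 Mb, 0.0204 and 0.0254 over 5 windows, 0.0111 and 0.0138 over 21, and 0.0172 and 0.0210 as a running median. The correlation of the waves was 0.323 without GC correction. Windows past the threshold in the same direction in both genotypes numbered 2 without the depth filter and 5 at 0.1. In the bin with the largest overlap, Tet1 differed by 0.182 and Tet3 by 0.106 in Ctrl, and Tet2 by -0.151 and Tet3 by -0.117 in Tet iTKO. The causes of these changes were not tested. No called difference changed sign under the alternatives run. Among differences not called, Tet2 in Tet iTKO changed sign in the bin just given (0.052 over the gene), and Tet3 in Ctrl went from 0.021 to -0.003 without GC correction.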
